A study of Saccharomyces cerevisiae with 27 samples.

Results

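The effect of the eco1-W216G mutation on transcript levels in budding yeast was compared between cells without and with FOB1. Of the 27 arrays of the series, 12 enter this comparison, as 4 groups of 3 cultures. The eco1 fob1 double mutant and the fob1 deletion were grown on an earlier experiment date. The single eco1 mutant and wild type, a W303a strain, were grown on a later date. For comparison, an eco1 rad61 double mutant and a rad61 deletion of the earlier date and a second set of fob1 cultures of the later date were also read, again 3 cultures each. All cultures grew at 30 °C in rich medium with an added amino acid mix, and total RNA was taken from exponential phase cells and hybridised to Affymetrix expression arrays. Each strain was 1 isolate, so the p-values below measure the spread between cultures of an isolate and not between isolates. The response to eco1-W216G is the mutant minus the otherwise matching strain, on the log2 scale. The interaction is the response without FOB1, double mutant minus fob1 deletion, minus the response with FOB1, eco1-W216G minus wild type. A positive interaction thus means that the response was higher without FOB1. Each response lies within one date, but the responses lie on different dates, so loss of FOB1 and date cannot be told apart in the interaction.

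Eco1 is an acetyltransferase that acts during DNA replication on Smc3, a subunit of the cohesin ring, and so allows sister chromatids to be held together. Its human counterpart ESCO2 is mutated in Roberts syndrome, and eco1-W216G models such a mutation. Fob1 binds the ribosomal DNA repeats, where it stops replication forks at a barrier and promotes recombination between repeats. Ribosomal DNA is also the site where RNA polymerase I makes the large ribosomal RNAs, and ribosome synthesis takes a large share of the transcription of a growing yeast cell. Genes for making ribosomes and genes induced by stress commonly move in opposite directions when growth slows.

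The targeted genes were examined first. ECO1 signal was 4.79, 4.85 and 5.12 (log2 intensity) in the eco1 fob1 double mutant, 8.03, 8.05 and 7.88 in the fob1 deletion, 4.58, 4.55 and 4.68 in eco1-W216G and 7.87, 7.74 and 7.94 in wild type. It was low in both eco1 strains with no overlap, although the design names a point mutation. FOB1 signal was 4.24, 3.89 and 3.94 in the double mutant, 4.10, 4.30 and 4.17 in the fob1 deletion, 9.26, 9.27 and 9.21 in eco1-W216G and 9.88, 9.90 and 9.96 in wild type. Its low values mark both deletion strains. The ECO1 interaction was 0.17 ± 0.16 (limma SE), which did not pass the test (limma adjusted p = 0.402). The FOB1 interaction was 0.50 ± 0.17. It holds the lower FOB1 signal of eco1-W216G against wild type, -0.67, and a difference of -0.16 between the other strains, which lack the gene. It passed, a call lost in 4 of 21 alternatives, each of which left out 1 array. MCD1, which encodes the cohesin kleisin subunit, and RAD61, which encodes the cohesin release factor, had interactions of 0.08 ± 0.10 and 0.38 ± 0.23 that did not pass (limma adjusted p = 0.52 and 0.203).

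The defining a cell genes were mostly high in every group, while the alpha cell genes were mixed. STE2, the alpha factor receptor, averaged 13.66, 13.67, 13.62 and 13.59 in double mutant, fob1 deletion, eco1-W216G and wild type, and MFA2, an a-factor gene, averaged 14.20, 14.10, 14.17 and 14.01. BAR1, a protease gene of a cells, was at 3.98 to 4.10 on average in the same groups, within the 3.74 to 4.30 that FOB1 had in the arrays of fob1 deletions. MF(ALPHA)1, an alpha-factor gene, averaged 4.15 in the double mutant, 4.09 in the fob1 deletion, 4.61 in eco1-W216G and 4.03 in wild type. STE3, the a-factor receptor, averaged 5.94, 6.10, 6.69 and 6.04 in the same order, while SAG1, the alpha-agglutinin, averaged 9.78, 9.51, 9.69 and 9.25 and AFB1, a barrier protein of alpha cells, 10.77, 10.41, 11.10 and 10.29. Summed over the 5 alpha cell genes, intensity was 2389 to 3282 in the double mutant, 2033 to 2433 in the fob1 deletion, 3085 to 3307 in eco1-W216G and 1912 to 2100 in wild type. The 7 a cell genes summed to 46713 to 52774 intensity in the double mutant, 45307 to 48951 in the fob1 deletion, 47246 to 51039 in eco1-W216G and 44364 to 45679 in wild type. The part of these markers in the results below was not tested.

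Arrays within each of the 4 groups correlated at 0.995 to 0.998 across probe sets. Of the 47 reporter probe sets, 5 lay at 3.54 to 4.79 (log2, group means) in the double mutant and at 8.79 to 13.26 in the other 3 groups. What those reporters measure is not given in the sources used here, and they were not tested.

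The response to eco1-W216G was called at few probe sets in the fob1 deletion and at many against wild type. The first lies on the earlier date and the second on the later, so background and date cannot be told apart here. In limma, 2238 of 5716 probe sets (39.2%) passed an adjusted p of 0.05 for the interaction, 1209 higher (21.2%) and 1029 lower (18.0%) without FOB1. The median interaction over all probe sets was 0.05. Changes of at least 2-fold were mostly in the lower direction, with 275 probe sets lower and 46 higher. The response itself was called at 45 probe sets without FOB1 (0.787%), 28 up (0.490%) and 17 down (0.297%), and 637 had an unadjusted p under 0.05. With FOB1 it was called at 3066 (53.6%), 1354 up (23.7%) and 1712 down (30.0%). Same-numbered cultures of the double mutant and the fob1 deletion deviated together. With replicate number as a block within each date, the count without FOB1 was 99. With median centring it was 26 up and 26 down. Leaving out 1 array at a time gave 12 to 30 calls without FOB1, the lowest without replicate 2 of the fob1 deletion.

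**Figure D1:**
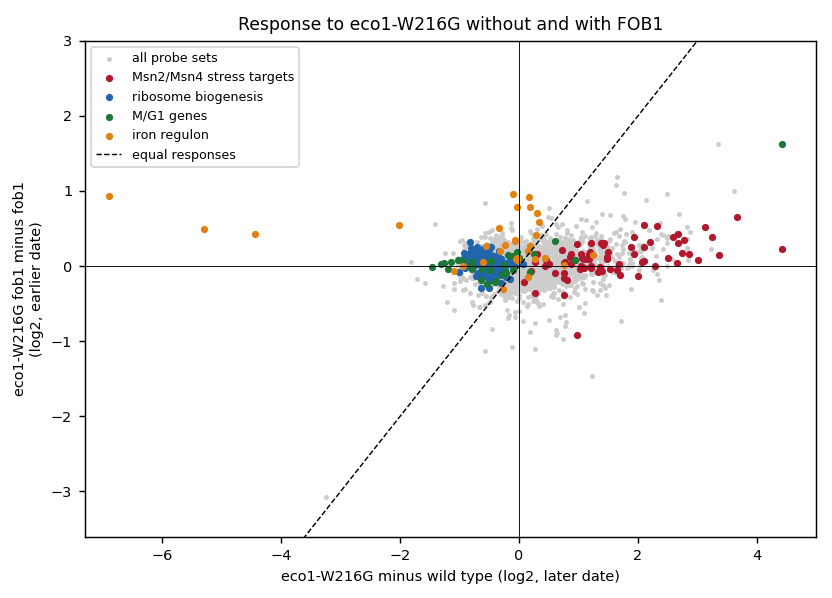
Response to eco1-W216G without FOB1 (vertical, double mutant minus fob1 deletion, log2) against that with FOB1 (horizontal, eco1-W216G minus wild type, log2). Each point is a probe set, coloured groups are gene lists, and the dashed line marks equal responses. The stress genes spread far to the right and the ribosome biogenesis genes to the left, while on the vertical axis both lie near 0.

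For the 1029 probe sets with a lower interaction, the median response was -0.03 without FOB1 and 0.62 with it. For the 1209 with a higher interaction, it was 0.07 without FOB1 and -0.43 with it. These responses are the terms of the interaction and share its arrays, so they describe its calls and do not support them. Relative to wild type on the other date, the lower set stood at 0.20 in the double mutant and 0.21 in the fob1 deletion, and the higher set at -0.08 and -0.14. By these medians the fob1 deletion, on another date than wild type, lay part of the way from wild type towards eco1-W216G, and the double mutant lay beside it.

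A difference of responses that stays on one date was set beside the interaction. It subtracts the response to eco1-W216G in the rad61 deletion, also grown on the earlier date, from that in the fob1 deletion. RAD61 encodes the yeast counterpart of the cohesin release factor Wapl. In limma, 78 probe sets passed (1.36%), 18 higher (0.315%) and 60 lower (1.05%) without FOB1, and 877 had an unadjusted p under 0.05. The count was 26 without replicate 2 of the fob1 deletion and 112 without replicate 2 of the rad61 deletion. This comparison shares the double mutant and fob1 arrays with the interaction, so the values are given side by side and are not independent. It asks about FOB1 relative to RAD61, not relative to wild type. Replicate 2 of the rad61 deletion stood apart on chromosome IX, where the median of its 191 genes was 0.82 above the wild-type mean, against 0.04 and 0.07 in the other rad61 cultures. The median one-date difference of those genes was 0.26, and 0.02 without that culture, while the other chromosomes ran from -0.10 to 0.03 with it. Same-numbered cultures deviated together in both responses of this comparison, and with replicate number as a block within the date it was called at 335 probe sets. One-date calls below that differ with the block or without that rad61 culture are given both ways.

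Genes induced through the stress transcription factors Msn2 and Msn4 had the most negative interactions. Of the 74 genes on that list, 70 were lower and 0 higher without FOB1 (18.0% of all probe sets were lower), with a median of -1.22 against 0.05 over all genes. With FOB1, 73 of the 74 rose in eco1-W216G, with a median of 1.35. Without FOB1, 0 rose and 1 fell, with a median of 0.09. The medians of the list relative to wild type were 0.51, 0.41 and 0.32 in the double mutant cultures, 0.35, 0.41 and 0.30 in the fob1 deletion and 1.43, 1.35 and 1.20 in eco1-W216G. The fob1 cultures of the later date stood at 0.39, 0.52 and 0.09. The double mutant therefore overlapped the fob1 deletion and lay below every eco1-W216G culture.

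HSP26, a small heat shock protein that binds unfolded proteins, had the lowest interaction of all. Its signal was 10.44, 10.08 and 10.22 in the double mutant, 9.90, 10.17 and 10.004 in the fob1 deletion, 12.97, 12.76 and 12.91 in eco1-W216G and 8.38, 8.50 and 8.51 in wild type. The strains without FOB1 overlapped each other, while the strains with FOB1 stood far apart on either side of them. The interaction was -4.19 ± 0.45 (limma SE), with a limma adjusted p of 5.27e-07. Against the rad61 deletion, on one date, the difference of responses was -0.88 ± 0.45 and did not pass (limma adjusted p = 0.365).

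NQM1, a transaldolase of unclear role that is induced when glucose runs out, was on no list and was among the 15 lowest interactions. It had 7.90, 7.69 and 7.68 in the double mutant, 7.62, 7.49 and 7.45 in the fob1 deletion, 10.40, 10.32 and 10.34 in eco1-W216G and 7.18, 7.01 and 7.19 in wild type. All double mutant cultures were just above the fob1 deletion, and the eco1-W216G cultures were well above all others. The response of NQM1 without FOB1, 0.23, did not pass (limma adjusted p = 0.525). The interaction was -3.0 ± 0.18 (limma adjusted p = 1.89e-10), and the one-date difference was -0.62 ± 0.18 (limma adjusted p = 0.0879).

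DDR2, a multistress response gene, had 11.21, 11.58 and 11.11 in the double mutant, 10.90, 11.03 and 10.81 in the fob1 deletion, 13.27, 13.26 and 13.19 in eco1-W216G and 9.78, 10.33 and 9.85 in wild type. Here the fob1 deletion was already above wild type in every culture. Its interaction was -2.87 ± 0.36, and the one-date difference was -0.31 ± 0.36. HSP30, a plasma membrane stress protein, and SIP18, a desiccation protein, had interactions of -3.22 ± 0.46 and -2.94 ± 0.58. XBP1, a stress-induced repressor, was at -2.60 ± 0.70, and SOL4, a 6-phosphogluconolactonase, at -2.70 ± 0.20. Each of these genes passed in the interaction, and none of HSP30, SIP18, XBP1, SOL4 and DDR2 passed in the one-date difference (limma adjusted p from 0.0893 for SOL4 to 0.932 for XBP1). With the replicate block SOL4 passed there (limma adjusted p = 0.0443), as it did without replicate 2 of the rad61 deletion (limma adjusted p = 0.0112). XBP1 lies on chromosome IX, and its one-date difference of -0.19 was -0.90 without that culture. In that comparison 9 of the 74 genes were lower and 0 higher (1.05% of all probe sets were lower), with a median of -0.46. The 9 became 31 with the replicate block and 16 without that rad61 culture.

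PRX1, a mitochondrial peroxiredoxin, passed in both comparisons. Its signal was 10.85, 10.67 and 10.62 in the double mutant, 10.78, 10.89 and 10.72 in the fob1 deletion, 12.20, 11.94 and 11.93 in eco1-W216G and 10.37, 10.46 and 10.54 in wild type. The double mutant and the fob1 deletion overlapped. On the earlier date the eco1 rad61 double mutant had 11.56, 11.51 and 11.47 and the rad61 deletion 10.67, 10.90 and 10.73, which did not overlap. The interaction was -1.65 ± 0.13 (limma adjusted p = 7.21e-09) and the one-date difference -0.83 ± 0.13 (limma adjusted p = 0.00159). That second call held in all 20 alternatives run for it.

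**Figure D2:**
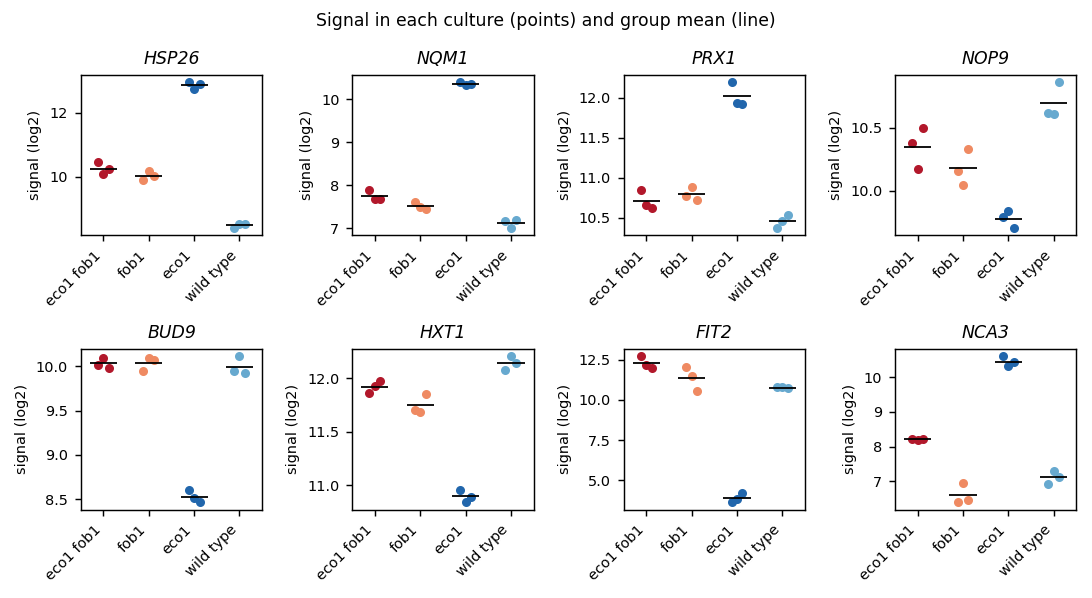
Signal (log2 intensity) of 8 genes in each culture, with points for cultures and lines for group means, for the eco1 fob1 double mutant, the fob1 deletion, eco1-W216G and wild type from left to right. For HSP26, NQM1, PRX1, NOP9, BUD9, HXT1 and FIT2 the strains without FOB1 lie close together and those with FOB1 apart, while NCA3 is higher with the mutation in both backgrounds.

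Other stress groups were more mixed. Among 32 heat shock chaperone genes, 9 were lower and 3 higher without FOB1, with a median of -0.07, against 18.0% lower and 21.2% higher among all probe sets. SSA3, a stress-inducible Hsp70, had 8.77, 8.53 and 8.63 in the double mutant, 8.43, 8.48 and 8.34 in the fob1 deletion, 10.32, 10.24 and 10.09 in eco1-W216G and 8.46, 8.51 and 8.46 in wild type. Only the eco1-W216G cultures were high. Its interaction was -1.52 ± 0.11 (limma adjusted p = 2.3e-09), while its one-date difference was -0.03 ± 0.11. BTN2, which sorts misfolded proteins, was at -1.81 ± 0.39, and SSE2, an Hsp110 co-chaperone, at -1.66 ± 0.25. The one-date difference of SSE2 did not pass (limma adjusted p = 0.107), but did with the replicate block (limma adjusted p = 0.0407). Of 28 oxidative stress genes controlled by Yap1, 13 were lower (18.0% of all probe sets) and 0 higher, among them SRX1, the sulfiredoxin, at -2.43 ± 0.31. The median of that list was -0.23.

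Genes of mitochondrial metabolism and of growth without glucose also had negative interactions. In the tricarboxylic acid cycle 14 of 18 genes were lower (18.0% of all probe sets) and 0 higher, with a median of -0.68, and 16 had risen with FOB1 (23.7% of all probe sets). Culture medians relative to wild type were 0.31, 0.29 and 0.15 in the double mutant, 0.21, 0.28 and 0.26 in the fob1 deletion and 0.67, 0.62 and 0.69 in eco1-W216G. The double mutant overlapped the fob1 deletion and stayed below eco1-W216G. In the respiratory chain 24 of 39 genes were lower and 0 higher, with a median of -0.42. Among 39 glucose-repressed genes 20 were lower and 0 higher, with a median of -0.69. Both lower shares were above the 18.0% of all probe sets.

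SDH2, the iron-sulfur subunit of succinate dehydrogenase, had 12.10, 12.09 and 11.86 in the double mutant, 12.09, 12.22 and 12.20 in the fob1 deletion, 12.84, 12.78 and 12.76 in eco1-W216G and 11.70, 11.87 and 11.67 in wild type. The strains without FOB1 overlapped each other below eco1-W216G, and all but the lowest double mutant culture were above wild type. Its interaction was -1.20 ± 0.19, and the one-date difference, -0.77 ± 0.19, also passed (limma adjusted p = 0.039), a call lost in 10 of 20 alternatives, each of which left out 1 array. CIT3, a mitochondrial citrate and methylcitrate synthase, was at -1.20 ± 0.18, and CIT1, the main citrate synthase, at -0.95 ± 0.18. The one-date difference of CIT1 was -0.62, with a limma adjusted p of 0.0938, 0.0198 with the replicate block and 0.0319 without replicate 2 of the rad61 deletion. NDE2, an external NADH dehydrogenase, was at -1.25 ± 0.19.

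POT1, the peroxisomal thiolase of fatty acid oxidation, had 5.05, 5.28 and 5.07 in the double mutant, 4.67, 5.05 and 4.91 in the fob1 deletion, 6.88, 6.89 and 6.94 in eco1-W216G and 5.04, 4.71 and 4.81 in wild type. Signal was high in eco1-W216G alone. The interaction was -1.80 ± 0.23 (limma adjusted p = 3.45e-06), and the one-date difference was 0.29 ± 0.23 (limma adjusted p = 0.582). POT1 lies on chromosome IX, and without replicate 2 of the rad61 deletion its one-date difference was 0.01. MDH2, the cytosolic malate dehydrogenase, was at -1.44 ± 0.26 and at 0.20 ± 0.26, and at -0.02 on one date without that culture. GUT2, the mitochondrial glycerol-3-phosphate dehydrogenase, was at -1.76 ± 0.35 and at -0.81 ± 0.35; the one-date value did not pass (limma adjusted p = 0.266). GUT2 also lies on chromosome IX, and without that culture its one-date value was -1.17 and passed (limma adjusted p = 0.0463). The medians of the glucose-repressed list were -0.69 for the interaction and 0.01 for the one-date difference, the second -0.05 without that culture.

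Proteasome genes moved by small amounts with little spread. Of 36 genes, 27 were lower (18.0% of all probe sets) and 0 higher without FOB1, with a median of -0.39, and with FOB1 31 had risen (23.7% of all probe sets) with a median of 0.33. Culture medians were -0.01, -0.11 and -0.04 in the double mutant, 0.02, 0.00 and -0.01 in the fob1 deletion, 0.33, 0.32 and 0.32 in eco1-W216G and -0.01, 0.01 and -0.01 in wild type. In this list the fob1 deletion stood at the wild-type level. UMP1, a proteasome assembly factor, had an interaction of -0.62 ± 0.13, RPN10, a ubiquitin receptor of the regulatory particle, of -0.64 ± 0.15, and PRE3, a catalytic subunit, of -0.54 ± 0.10. The one-date difference had a median of -0.15, with 0 of 36 genes called, and 2 lower with the replicate block.

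Genes for making ribosomes had the opposite sign. Of 147 ribosome biogenesis genes, 94 were higher and 0 lower without FOB1 (21.2% of all probe sets were higher), with a median of 0.52. With FOB1, 130 had fallen in eco1-W216G (30.0% of all probe sets fell), with a median of -0.49. Without FOB1, 0 were called in either direction, with a median of 0.05. Culture medians relative to wild type were -0.44, -0.47 and -0.27 in the double mutant, -0.45, -0.55 and -0.36 in the fob1 deletion and -0.63, -0.45 and -0.41 in eco1-W216G. These 3 strains overlapped one another, and wild type lay higher at -0.10, -0.04 and 0.13. The fob1 cultures of the later date, on the same date as wild type, stood at -0.36, -0.57 and -0.12. The positive interaction of this list thus went with a fob1 deletion that was itself low, and not with a double mutant at the wild-type level.

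NOP9, a protein of small ribosomal subunit assembly, had 10.38, 10.17 and 10.50 in the double mutant, 10.16, 10.05 and 10.34 in the fob1 deletion, 9.79, 9.84 and 9.71 in eco1-W216G and 10.62, 10.61 and 10.86 in wild type. The strains without FOB1 overlapped between eco1-W216G below and wild type above. The interaction was 1.09 ± 0.16 (limma adjusted p = 1.77e-05), and the one-date difference was 0.28 ± 0.16 (limma adjusted p = 0.4). DHR2, a predicted RNA helicase of ribosomal RNA maturation, was at 1.15 ± 0.27, and ARX1, a nuclear export factor of the large subunit, at 1.06 ± 0.19. The one-date difference had a median of 0.27 over this list, with 0 of 147 genes called, and 24 higher with the replicate block, DHR2 among them (limma adjusted p = 0.0175).

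Other parts of the protein synthesis machinery shared this sign with smaller medians. Among 37 genes of RNA polymerases I and III, 15 were higher and 0 lower, with a median of 0.32. They included RPC82 and RPC17, subunits of polymerase III, at 0.82 ± 0.16 and 0.58 ± 0.17, and BDP1, a subunit of its initiation factor TFIIIB, at 0.59 ± 0.14. Of 20 aminoacyl-tRNA synthetase genes, 15 were higher and 0 lower, with a median of 0.36, and the methionyl enzyme MES1 was at 0.79 ± 0.09. Of 35 translation factor genes, 15 were higher and 0 lower, with a median of 0.24. The higher shares of these lists were all above the 21.2% of all probe sets. Among 128 cytosolic ribosomal protein genes, 19 were higher and 0 lower (21.2% of all probe sets were higher), with a median of 0.12, a share below that of all probe sets. That count was 12 without replicate 3 of the fob1 deletion or replicates 2 or 3 of wild type, and 51 with the fob1 arrays of the later date. The one-date difference had medians of 0.17 for the polymerase list, 0.06 for tRNA synthetases, 0.05 for translation factors and 0.02 for cytosolic ribosomal proteins. It called 0 genes in each of these lists. With the replicate block 3 polymerase genes were higher and still 0 in the other lists.

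DED1, an RNA helicase needed to start translation, had 12.28, 12.09 and 12.24 in the double mutant, 11.86, 11.71 and 12.04 in the fob1 deletion, 11.27, 11.13 and 10.76 in eco1-W216G and 12.12, 11.94 and 12.07 in wild type. The double mutant was above the fob1 deletion and eco1-W216G far below wild type, without overlap in either pair. The response of DED1 without FOB1, 0.34, did not pass (limma adjusted p = 0.403). The interaction was 1.33 ± 0.21 (limma adjusted p = 6.56e-05), and the one-date difference, 0.36 ± 0.21, did not pass (limma adjusted p = 0.439). TIF4631, the scaffold eIF4G, was at 0.77 ± 0.15.

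**Figure D3:**
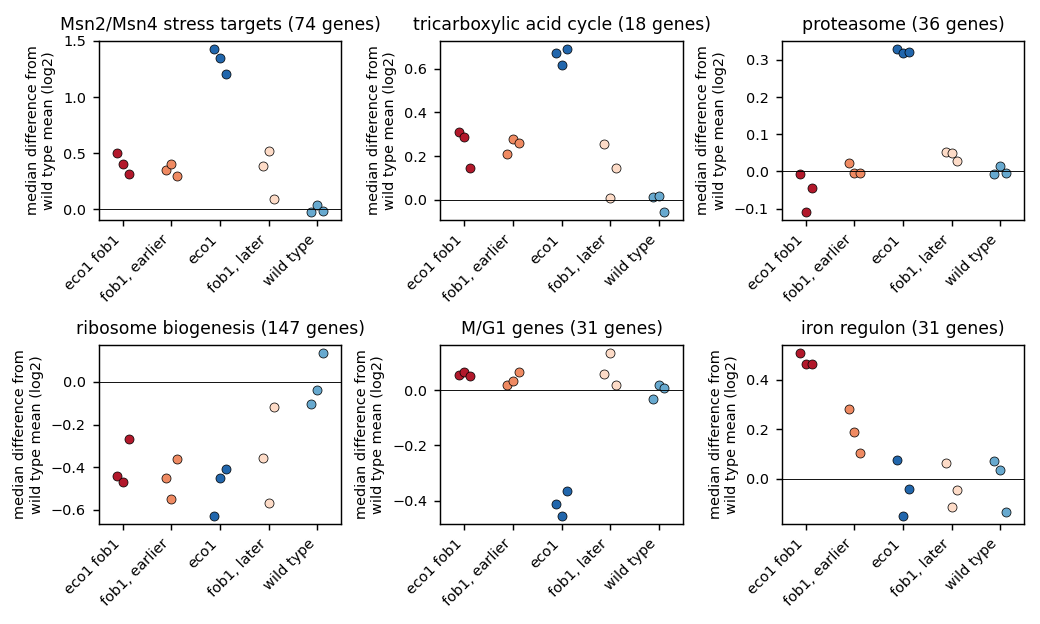
Median over the genes of 6 lists, per culture, of the difference from the wild-type mean (log2), for the double mutant, the fob1 deletion of the earlier date, eco1-W216G, the fob1 deletion of the later date and wild type. The stress, tricarboxylic acid cycle and proteasome lists are highest in eco1-W216G, the M/G1 list is low there alone, and the ribosome biogenesis list is below wild type in the other 4 groups.

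Genes expressed as daughter cells separate and enter G1 had positive interactions. Among 31 M/G1 genes, 16 were higher (21.2% of all probe sets) and 2 lower (18.0%) without FOB1, with a median of 0.30. Culture medians relative to wild type were 0.06, 0.07 and 0.05 in the double mutant, 0.02, 0.03 and 0.06 in the fob1 deletion and -0.41, -0.45 and -0.36 in eco1-W216G. The strains without FOB1 were at the wild-type level, unlike for ribosome biogenesis. On the earlier date the eco1 rad61 double mutant stood at -0.02, -0.01 and 0.01, and the one-date difference had a median of 0.07 with 0 of 31 genes called, and 1 with the replicate block.

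BUD9, which marks the bud site in daughter cells, had 10.01, 10.10 and 9.99 in the double mutant, 9.95, 10.09 and 10.08 in the fob1 deletion, 8.61, 8.52 and 8.46 in eco1-W216G and 9.95, 10.11 and 9.92 in wild type. The double mutant, the fob1 deletion and wild type overlapped and eco1-W216G alone was low. The interaction was 1.46 ± 0.11 (limma adjusted p = 2.94e-09), and the one-date difference was 0.31 ± 0.11 (limma adjusted p = 0.165, and 0.049 with the replicate block). SCW11 and DSE1, of daughter cell wall separation, were at 1.31 ± 0.19 and 1.33 ± 0.26. AMN1, which turns off mitotic exit in daughters, was at 1.16 ± 0.10, and HO, the mating-type switching endonuclease gene of mother cells and not on the list, at 1.36 ± 0.16.

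Genes of other cell cycle stages and of chromosome structure moved less. Of 58 G1/S genes, 18 were higher (21.2% of all probe sets) and 2 lower (18.0%), with a median of 0.17, including POL12, the B subunit of DNA polymerase alpha, at 0.61 ± 0.12 and RNR1, of ribonucleotide reductase, at 0.63 ± 0.13. The 2 lower G1/S genes were 0 to 3 without 1 array at a time, at 0 without replicate 2 of the double mutant or replicate 3 of wild type. Of 10 histone genes, 4 were higher and 0 lower, with HTB2, histone H2B, at 0.60 ± 0.13. The 4 became 1 without replicate 3 of the fob1 deletion, and 2 without replicate 1 of the double mutant, replicate 1 of eco1-W216G or replicate 2 of wild type. Among 30 G2/M genes 7 were higher and 6 lower, shares close to the 21.2% and 18.0% of all probe sets, and KIN3, a mitotic kinase, was at -0.72 ± 0.12. For G1/S, histone and G2/M genes the one-date difference called 0, 0 and 1 gene, and with the replicate block 2, 0 and 2, RNR1 and KIN3 among them (limma adjusted p = 0.0288 and 0.0386).

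Among 25 genes of cohesin and its regulators, 8 were higher and 3 lower without FOB1, against 21.2% and 18.0% of all probe sets, with a median of 0.07 against 0.05 over all genes. The 3 became 1 without replicate 1 of the fob1 deletion or replicate 3 of wild type. SMC3, the cohesin subunit that Eco1 acetylates, had 10.76, 10.57 and 10.85 in the double mutant, 10.72, 10.66 and 10.75 in the fob1 deletion, 10.74, 10.81 and 10.69 in eco1-W216G and 11.41, 11.15 and 11.23 in wild type. Wild type alone was high, and the 3 mutant strains overlapped. The SMC3 interaction was 0.53 ± 0.11 (limma adjusted p = 0.000485), and with the fob1 arrays of the later date in place of the earlier ones it was 0.22 and no longer passed. CTF18, of the alternative clamp loader that aids cohesion, was at 0.64 ± 0.15. RMI1, a partner of the Sgs1 helicase, went the other way at -0.63 ± 0.16.

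Among 27 genes of ribosomal DNA chromatin, 8 were higher (21.2% of all probe sets) and 2 lower (18.0%), with a median of 0.19. The 8 became 5 without eco1-W216G replicates 2 or 3, or without replicate 1 of the double mutant or of the fob1 deletion, or without replicate 3 of wild type. TOP1, the topoisomerase I that relaxes ribosomal DNA, had 9.29, 9.0 and 9.39 in the double mutant, 9.23, 9.14 and 9.32 in the fob1 deletion, 8.99, 9.24 and 9.15 in eco1-W216G and 9.88, 9.67 and 9.83 in wild type. As for SMC3, only wild type was high. Its interaction was 0.67 ± 0.12 (limma adjusted p = 0.000257), and the one-date difference was 0.05 ± 0.12. RLF2, a subunit of chromatin assembly factor CAF-1, was at 0.47 ± 0.12. In the condensin and Smc5/6 list 5 of 13 genes were higher (21.2% of all probe sets) and 0 lower, with 8 higher without replicate 2 of the double mutant and 1 lower without its replicate 3 or replicate 1 of eco1-W216G, and the Smc5/6 subunit gene NSE5 was at 0.66 ± 0.13.

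The highest interactions of all belonged to iron uptake genes, and these were also present on one date. Siderophores are small iron carriers, FIT2 and FIT3 encode cell wall mannoproteins that retain them, and FRE3 and FRE4 encode reductases that release their iron. Yeast switches these genes on through the factors Aft1 and Aft2 when iron is short. Of 31 iron regulon genes, 15 were higher (21.2% of all probe sets) and 2 lower (18.0%) without FOB1, with a median of 0.41. In the one-date difference 7 were higher and 0 lower (0.315% of all probe sets were higher), with a median of 0.29, and 11 were higher with the replicate block.

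FIT2 had 12.72, 12.15 and 12.01 in the double mutant, 12.06, 11.46 and 10.55 in the fob1 deletion, 3.62, 3.82 and 4.18 in eco1-W216G and 10.78, 10.81 and 10.73 in wild type. Signal was high in 3 strains and all but lost in eco1-W216G, where it was close to the 3.74 to 4.30 that FOB1 had in the arrays of fob1 deletions. The interaction was 7.84 ± 0.51 (limma adjusted p = 4.15e-10), and its size is limited by that lower end of the scale. On the earlier date the eco1 rad61 double mutant had 4.39, 3.65 and 4.07 and the rad61 deletion 12.62, 11.55 and 11.03. The one-date difference was 8.64 ± 0.51 (limma adjusted p = 1.32e-10).

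FIT3 behaved alike, with 13.71, 13.26 and 13.28 in the double mutant, 13.32, 13.04 and 12.41 in the fob1 deletion, 6.87, 6.39 and 7.11 in eco1-W216G and 12.10, 12.13 and 12.04 in wild type. The strains without FOB1 overlapped each other above wild type, and eco1-W216G lay far below. Its interaction was 5.79 ± 0.38 and its one-date difference 6.33 ± 0.38. Between dates the fob1 deletion itself differed for both genes, by 1.42 for FIT2 and 1.96 for FIT3, earlier minus later (limma adjusted p = 0.0293 and 0.000764). On the date of wild type the fob1 deletion averaged 9.93 for FIT2 and 10.96 for FIT3. These lay below the wild-type means of 10.77 and 12.09, unlike the fob1 means of the earlier date.

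FRE3 had 9.38, 9.33 and 9.21 in the double mutant, 9.04, 8.93 and 8.68 in the fob1 deletion, 4.30, 4.09 and 4.44 in eco1-W216G and 8.85, 8.73 and 8.55 in wild type. The double mutant was the highest and eco1-W216G far below the rest. The response of FRE3 without FOB1, 0.42, did not pass (limma adjusted p = 0.208). The interaction was 4.86 ± 0.20 (limma adjusted p = 2.99e-13) and the one-date difference 5.14 ± 0.20 (limma adjusted p = 9.18e-14). As for FIT2, both sizes are limited by the lower end of the scale, since FRE3 averaged 4.28 in eco1-W216G and 4.49 in the eco1 rad61 double mutant. FRE4 had 9.27, 9.50 and 9.62 in the double mutant, 8.98, 8.89 and 8.87 in the fob1 deletion, 6.94, 6.41 and 7.21 in eco1-W216G and 8.88, 8.80 and 8.94 in wild type. It too was low in eco1-W216G alone, with an interaction of 2.57 ± 0.22 and a one-date difference of 1.92 ± 0.22 (limma adjusted p = 2.72e-08 and 2.65e-05). Its response of 0.55 without FOB1 did not pass (limma adjusted p = 0.143) but did with the replicate block (limma adjusted p = 0.0208). For FIT2, FIT3, FRE3 and FRE4 the one-date call held in every alternative run for it, 19 or 20 per gene.

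FRE3, FIT2 and FIT3 are neighbours on chromosome XV, and the genes around them were read after their values had been seen. Between FRE3 and FIT2, the small gene YOR381W-A was near the lower end of the scale in every group, at 3.85 ± 0.04 (SD, n = 3) in the double mutant, 3.67 ± 0.06 in the fob1 deletion, 3.47 ± 0.01 in eco1-W216G and 3.72 ± 0.07 in wild type, and its interaction of 0.43 and one-date difference of 0.44 passed (limma adjusted p = 0.00111 and 0.0192). RDR1, a transcriptional repressor gene on the FRE3 side, was at 9.89 ± 0.29 in the double mutant, 10.06 ± 0.30 in the fob1 deletion, 9.98 ± 0.05 in eco1-W216G and 9.79 ± 0.03 in wild type. FRE5, on the FIT3 side, averaged 4.24, 4.15, 4.00 and 4.03 in the same order. The low signal in eco1-W216G was not seen in RDR1, and FRE5 lay at the lower end in all groups. The interactions of RDR1 and FRE5 did not pass (limma adjusted p = 0.162 and 0.587). Outside these, ATF1 and AMF1 had positive interactions of 1.21 and 0.84, and YOR385W and FDH1 negative ones of -1.05 and -1.26, all of which passed. FRE4 lies on another chromosome.

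**Figure D4:**
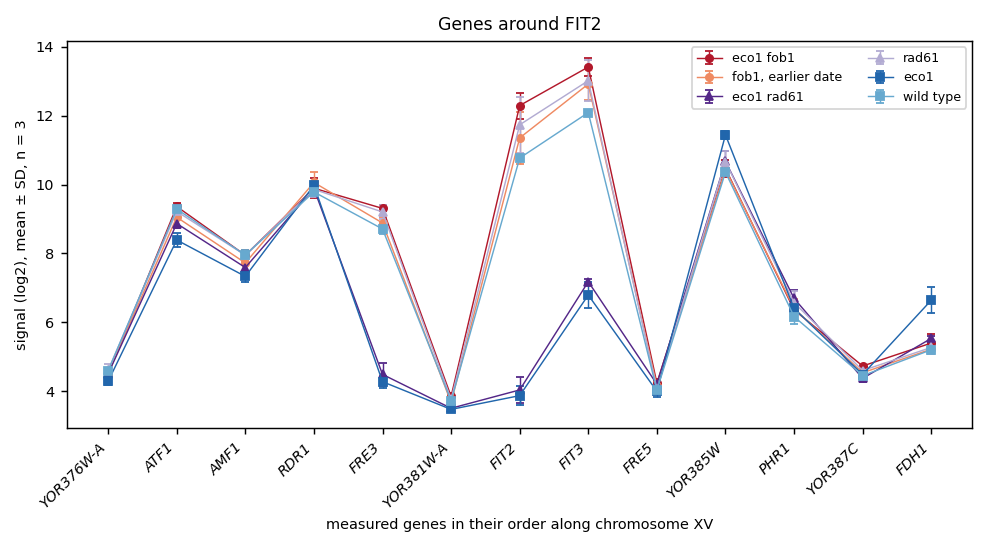
Signal (log2, mean ± SD of 3 cultures) of the measured genes around FIT2, in their order along chromosome XV, in the groups given in the legend. In strains that carry eco1-W216G with FOB1, FRE3, FIT2 and FIT3 are low, at 4.28, 3.87 and 6.79 in eco1-W216G, while RDR1 next to FRE3 is not.

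SIT1, a siderophore transporter, differed from the FIT genes in that eco1-W216G did not lower it with FOB1. It had 12.29, 11.96 and 12.13 in the double mutant, 11.65, 10.96 and 10.89 in the fob1 deletion, 11.70, 11.25 and 11.15 in eco1-W216G and 11.66, 11.52 and 11.21 in wild type. The double mutant was above the fob1 deletion without overlap, while eco1-W216G and wild type overlapped. SIT1 rose by 0.96 without FOB1 (limma adjusted p = 0.0216), and its response with FOB1 was -0.10. The interaction was 1.06 ± 0.29 (limma adjusted p = 0.00585). The call without FOB1 was lost in 5 of 16 alternatives, among them without replicates 1 or 3 of the double mutant and replicates 2 or 3 of the fob1 deletion (limma adjusted p up to 0.169). The median of the iron list relative to wild type was 0.51, 0.47 and 0.46 in double mutant cultures, 0.28, 0.19 and 0.10 in the fob1 deletion, and 0.08, -0.15 and -0.04 in eco1-W216G. The fob1 cultures of the later date, on the same date as wild type, stood at 0.06, -0.11 and -0.05.

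Transporters and nutrient genes gave further values. HXT1, the low-affinity glucose transporter, had 11.86, 11.93 and 11.97 in the double mutant, 11.70, 11.69 and 11.85 in the fob1 deletion, 10.96, 10.84 and 10.89 in eco1-W216G and 12.07, 12.20 and 12.14 in wild type. Only eco1-W216G was low. Its interaction was 1.41 ± 0.13 (limma adjusted p = 5.62e-08) and its one-date difference 0.86 ± 0.13 (limma adjusted p = 0.00099). HXT9, a transporter linked to drug resistance, had an interaction of -2.10 ± 0.18, but its probe set may also detect near-identical transporter genes. In the list of 16 hexose transporters 1 gene was higher (21.2% of all probe sets) and 4 were lower (18.0%), with a median of -0.17. The lower genes were 2 without replicate 3 of the double mutant, replicate 2 of the fob1 deletion or replicate 1 of eco1-W216G, and the higher ones 2 without replicate 2 of the double mutant, replicate 1 of the fob1 deletion or replicate 1 of eco1-W216G. With dim probe sets left out 2 were higher and 1 lower, and the median had the opposite sign, 0.24.

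ATO3, an ammonium exporter, changed in both backgrounds, in opposite directions. It had 11.76, 11.88 and 11.78 in the double mutant, 11.23, 10.85 and 10.84 in the fob1 deletion, 10.95, 10.98 and 11.25 in eco1-W216G and 11.74, 11.66 and 11.49 in wild type. The double mutant lay above the fob1 deletion and eco1-W216G below wild type, with no overlap in either pair. ATO3 rose by 0.83 without FOB1 (limma adjusted p = 0.00121), and its response with FOB1 was -0.57 (limma adjusted p = 0.000715). Its interaction was 1.40 ± 0.18 and its one-date difference 1.59 ± 0.18, which passed in all 20 alternatives. HMS2, a factor similar to heat shock factors, was at 1.87 ± 0.22 (one-date difference 0.74, limma adjusted p = 0.0938, and 0.0136 with the replicate block), and PLB2, a phospholipase B, at 1.54 ± 0.23.

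For some amino acid, phosphate, iron and oxidative stress genes the fob1 deletion itself differed between dates. Across all genes that difference, earlier minus later, was called at 275 probe sets (4.81%), 104 higher (1.82%) and 171 lower (2.99%). With only those arrays in the fit it was called at 0, with 799 at an unadjusted p under 0.05, and without 1 array at a time at 40 to 447. Among 28 methionine and sulfur genes, 11 were higher on the earlier date (1.82% of all probe sets), as were 3 of 48 Gcn4 genes and 5 of 19 phosphate genes, with 0 lower in each list. Of 31 iron regulon genes 7 were higher on the earlier date and 0 lower, with a median of 0.22. Of 28 Yap1 genes 6 were higher and 1 lower. For the interaction 3 methionine and sulfur genes were higher (21.2% of all probe sets) and 10 lower (18.0%). The 3 became 1 without replicate 1 of the double mutant, replicates 1 or 2 of the fob1 deletion, replicate 3 of eco1-W216G or replicates 2 or 3 of wild type. MET3, ATP sulfurylase, had an interaction of -1.24 ± 0.17 beside a date difference of 0.63. STR3, a cystathionine lyase of sulfur metabolism, was at -1.61 ± 0.19 beside 0.52. Of 48 Gcn4-controlled amino acid genes, 7 were higher and 7 lower, shares below the 21.2% and 18.0% of all probe sets. ARG1, argininosuccinate synthase, had 10.07, 10.21 and 10.08 in the double mutant, 10.39, 11.03 and 11.12 in the fob1 deletion, 11.61, 11.55 and 11.70 in eco1-W216G and 10.06, 9.85 and 9.79 in wild type. The double mutant lay below the fob1 deletion, but the response of ARG1 without FOB1, -0.73, did not pass (limma adjusted p = 0.543). The interaction of ARG1 was -2.45 ± 0.57 beside a date difference of 1.00. Of 19 phosphate genes 9 were higher (21.2% of all probe sets) and 1 lower (2 without replicate 1 of the fob1 deletion or replicate 2 of wild type), and PHM6, induced by low phosphate, was at 1.20 ± 0.42 (limma adjusted p = 0.03), a call lost in 6 alternatives, 5 of which left out 1 array. CTF19, a kinetochore gene on the phosphate list, was at 1.14 ± 0.32.

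Few probe sets were called for the response to eco1-W216G without FOB1. The lists with the most such calls were the cell wall genes, 5 of 39, and the iron regulon, 4 of 31. All of these were higher (0.490% of all probe sets were higher), and with the replicate block they numbered 9 and 8, again with 0 lower. NCA3, a cell wall protein of the SUN family, had 8.23, 8.19 and 8.23 in the double mutant, 6.38, 6.95 and 6.45 in the fob1 deletion, 10.61, 10.32 and 10.43 in eco1-W216G and 6.93, 7.29 and 7.13 in wild type. The mutation went with higher signal in both backgrounds, with no overlap. NCA3 rose by 1.62 without FOB1 and by 3.34 with it, and the interaction was -1.72 ± 0.22 (limma adjusted p = 5.27e-06). Its one-date difference was 0.34 ± 0.22. One probe set among the 15 lowest interactions, for which the platform table gives no gene, rose by 1.00 without FOB1 and by 3.61 with it, with an interaction of -2.61 ± 0.21.

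GTT2, a glutathione transferase, had 8.16, 8.21 and 8.24 in the double mutant, 8.84, 9.52 and 9.56 in the fob1 deletion, 8.23, 8.22 and 8.41 in eco1-W216G and 8.03, 7.93 and 8.10 in wild type. Here the fob1 deletion alone was high. GTT2 fell by 1.10 without FOB1 (limma adjusted p = 0.00516), a call lost without replicate 2 or replicate 3 of the fob1 deletion and with the fob1 arrays of the later date. The interaction was -1.37 ± 0.28 and the one-date difference -1.37 ± 0.28 (limma adjusted p = 0.000551 and 0.0158). Between dates the fob1 deletion differed by 0.84 for this gene, and with the fob1 arrays of the later date the interaction was -0.53 and did not pass. AAD6, an aryl-alcohol dehydrogenase, was likewise above the double mutant in every fob1 culture, with 8.38, 8.24 and 8.26 in the double mutant, 8.97, 10.003 and 10.30 in the fob1 deletion, 9.21, 8.95 and 8.99 in eco1-W216G and 7.77, 7.94 and 7.75 in wild type. The response of AAD6 without FOB1, -1.47, did not pass (limma adjusted p = 0.147). Its interaction of -2.70 ± 0.62 stood beside a date difference of 1.72, and with the later fob1 arrays it was -0.98 and no longer passed.

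ADR1, the activator of glucose-repressed genes, had 8.50, 8.71 and 8.15 in the double mutant, 7.47, 7.62 and 7.36 in the fob1 deletion, 9.68, 9.26 and 9.03 in eco1-W216G and 7.57, 7.67 and 7.46 in wild type. It was higher with the mutation in both backgrounds, by 0.97 without FOB1 (limma adjusted p = 0.0286, a call lost in 6 of 15 alternatives, 5 of them without 1 array) and by 1.76 with it. The interaction of -0.78 ± 0.30 (limma adjusted p = 0.0453) was lost in 10 alternatives, 9 of which left out 1 array. Of all 39 cell wall genes, 12 were lower (18.0% of all probe sets) and 3 higher (21.2%) for the interaction. PIR3, a cell wall protein, had 11.04, 11.20 and 10.80 in the double mutant, 9.30, 9.48 and 9.41 in the fob1 deletion, 13.35, 12.91 and 13.15 in eco1-W216G and 8.63, 8.82 and 8.68 in wild type. It was separate in both pairs, but its response of 1.62 without FOB1 did not pass (limma adjusted p = 0.091, and 0.0443 with the replicate block), and its interaction was -2.80 ± 0.61.

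The lists were last set side by side for the interaction and the one-date difference. The medians had the same sign in both for Msn2 and Msn4 targets (-1.22 and -0.46), the tricarboxylic acid cycle (-0.68 and -0.33), the respiratory chain (-0.42 and -0.27), the proteasome (-0.39 and -0.15), ribosome biogenesis (0.52 and 0.27) and the iron regulon (0.41 and 0.29). Glucose-repressed genes had -0.69 and 0.01, and M/G1 genes 0.30 and 0.07. The signs also differed for cell wall genes (-0.15 and 0.03), hexose transporters (-0.17 and 0.05) and G2/M genes (0.09 and -0.05). The same held for DNA damage (-0.11 and 0.03), Gcn4 (0.02 and -0.002) and cohesin genes (0.07 and -0.002). Calls in the one-date difference numbered 9 of 74 for the stress list, 3 of 18 for the tricarboxylic acid cycle and 7 of 31 for iron, and 0 for the respiratory chain, the proteasome, ribosome biogenesis and M/G1 lists. With the replicate block they numbered 31, 7 and 11 for the stress, tricarboxylic acid cycle and iron lists, and 4, 2, 24 and 1 for the respiratory chain, proteasome, ribosome biogenesis and M/G1 lists. Because both comparisons contain the same fob1 arrays, the shared sign is a description.

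**Figure D5:**
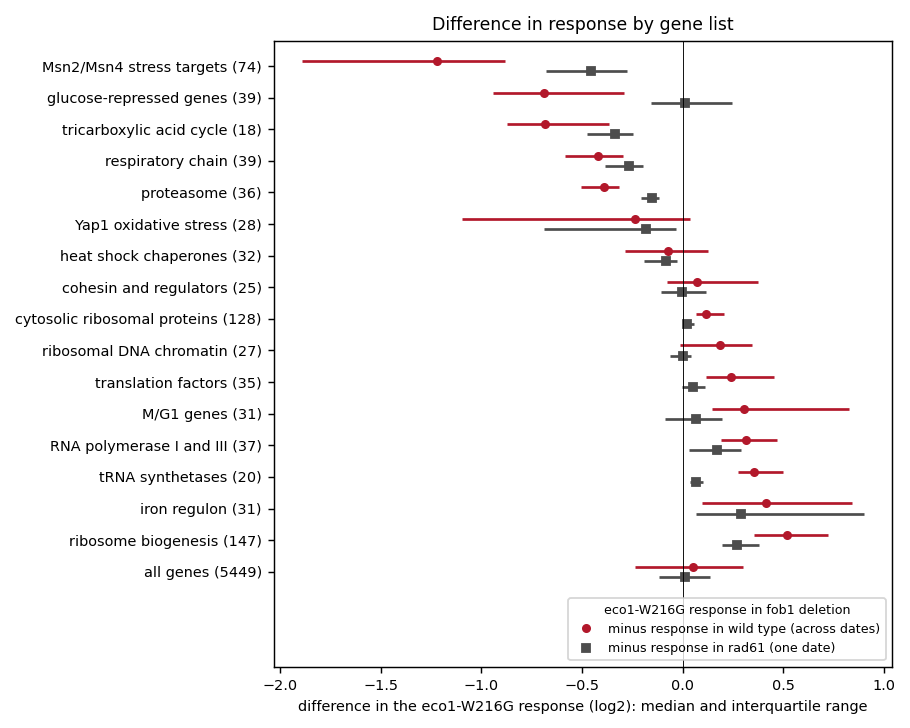
Median (point) and interquartile range (line) over the genes of each list of the response to eco1-W216G without FOB1 minus that in wild type (circles, across dates) and minus that in the rad61 deletion (squares, one date), in log2, with the number of genes in brackets. For the Msn2/Msn4 list the medians are -1.22 and -0.46, and for all 5449 genes they are 0.05 and 0.01.

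A haploid strain of one mating type does not sporulate, so sporulation genes served as a list of low signal. Of these 8 genes, 6 were lower (18.0% of all probe sets) and 0 higher without FOB1 (1 lower with quantile normalization repeated, and none tested once dim probe sets were left out), with a summed intensity of 935 to 953 in the double mutant, 1015 to 1055 in the fob1 deletion, 1360 to 1422 in eco1-W216G and 946 to 1036 in wild type. The DNA damage list was mixed, with 5 of 26 genes higher (2 without replicate 1 of wild type) and 7 lower (4 without eco1-W216G replicate 2 or wild type replicate 3), near the 21.2% and 18.0% of all probe sets. MAG1, a DNA glycosylase, was at -1.55 ± 0.20, and its one-date difference of -0.70 did not pass (limma adjusted p = 0.0879), but did with the replicate block (limma adjusted p = 0.0312). LEU2, a gene often used as a strain marker, had 11.97, 12.01 and 11.95 in the double mutant, 11.98, 12.14 and 12.13 in the fob1 deletion, 10.22, 10.08 and 10.48 in eco1-W216G and 11.23, 11.26 and 11.21 in wild type. It was lowest in eco1-W216G, and its interaction was 0.87 ± 0.14. By chromosome, the median interaction of the 90 genes on chromosome I was -0.18, while on the other chromosomes medians ran from -0.08 to 0.11. On chromosome I, 4 genes were higher (21.2% of all probe sets) and 30 lower (18.0%). In either direction 37.8% of its genes were called, close to the 39.2% of all probe sets. On chromosome IX, 12 of 191 genes were higher and 27 lower (20.4%), against 39.2% of all probe sets called in either direction. The spread that the model shares over all arrays includes replicate 2 of the rad61 deletion, which stood apart on that chromosome. Its part in this lower share was not tested, so the share is not read as a weaker response there.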

How the data were processed

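The authors deposited one intensity for each probe set and array. According to the submitters' processing notes these came from RMA, run in R 2.15.2. Whether both dates were normalized together is not given in the sources used here. Per the labels' protocols, labelled RNA was made from 300 ng of total RNA. The lowest intensity was 10.372 and the highest 39895, with medians of 1221.35 to 1268 per array. The planned tests assumed log2 values, so log2 of the deposited intensity was taken first. Arrays have no depth, and their number limits the precision.

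The table held 5814 probe sets. Leaving out 51 for controls and 47 for reporters gave 5716 that were tested. For naming, 5498 had 1 symbol in the platform's gene table and 218 had none, and 12 symbols were updated from the R64 gene table, used only for names and gene order. Lists and chromosomes use the brightest probe set of each of 5449 genes.

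Tests used limma 3.58.1 in R 4.3.3: 1 model of 9 group means over all 27 arrays with 18 residual degrees of freedom, two-sided, Benjamini-Hochberg adjustment over all probe sets and a threshold of 0.05. Values are differences ± the limma SE, n = 3 cultures per group. The fit was tested on simulated data with independent noise for each array. That test therefore does not cover the shared deviations of same-numbered cultures or the difference in date. Genes and the 31 lists were chosen with earlier results of these data known. Named genes are ECO1, FOB1, RAD61 and MCD1, the 15 highest and 15 lowest called interactions, the 3 largest called members of each list and 5 genes also called without FOB1, 112 in all. Genes named as examples are a part of these, and the genes around FIT2 and the mating-type genes were added. The alternatives are given at the end.

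Same-numbered cultures were checked for pairing by the correlation of their deviations from the group means. It was 0.35, 0.64 and 0.53 between double mutant and fob1 deletion, and 0.22, -0.24 and 0.24 between eco1-W216G and wild type, and 0.38, 0.37 and 0.32 between the eco1 rad61 double mutant and the rad61 deletion. Same-numbered cultures thus deviated together for the responses in the fob1 and rad61 deletions, and not in every pair for that with FOB1. The main fits had no block, so their counts and p-values do not use this pairing. The block of the alternatives covered all groups of each date, and values with it are given where they differ.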

Additional observations from a re-analysis of the deposited data

Results flagged for a closer look

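The response to eco1-W216G differed by a test of the difference itself at 2238 probe sets for cells without against with FOB1. For the fob1 against the rad61 deletion, on one date, it differed at 78. In the first test loss of FOB1 and date cannot be told apart. Both tests contain the same double mutant and fob1 arrays, so passing in both is not independent support. Genes chosen by the naming rule that passed in both tests are given here with the one-date difference in response, fob1 deletion minus rad61 deletion. YOR381W-A, next to FIT2 and outside that rule, passed in both as well, at 0.44. Positive values were found for the iron genes FIT2 (8.64), FIT3 (6.33), FRE3 (5.14), FRE4 (1.92) and SIT1 (1.22), the ammonium exporter ATO3 (1.59) and the glucose transporter HXT1 (0.86). Negative values were found for ECM13, a gene of unknown function (-1.47), GTT2 (-1.37), PRX1 (-0.83), BNS1, which has a role in mitotic exit (-0.81), SDH2 (-0.77), HIS4, of histidine synthesis (-0.62), and MF(ALPHA)1 (-0.61). Over the alternatives run, FIT2, FIT3, FRE3, FRE4, ATO3, HXT1, PRX1 and BNS1 passed in all of them. ECM13 lost its call in 12, GTT2 in 4, SDH2, HIS4 and SIT1 in 10 each, and MF(ALPHA)1, at 4.03 to 4.61 in the group means, in 13.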

How the results depend on the processing

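The count of interaction calls stayed within 1.5 times of 2238 in all alternatives: 1840 to 2701 over 10 settings, and 1870 to 2179 without 1 array at a time. With a replicate block it was 2484 over both dates and 2701 within each date, although the numbers do not pair all 4 groups. With the fob1 arrays of the later date, which set the double mutant against another date, it was 2517. The split of 1209 higher and 1029 lower became 1236 and 1281 with those arrays, and 1076 and 764 with dim probe sets left out. Of the 109 named genes called, 89 kept their call in every alternative, 20 lost it in some and 0 reversed. The response with FOB1 stayed within 1.5 times of 3066.

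The response without FOB1 had 45 calls. It had 12 to 30 without 1 array, 71 and 99 with the replicate block over both dates and within each date, and 912 with the fob1 arrays of the later date, which sets arrays of different dates against each other by construction. The one-date difference from the rad61 deletion had 78 calls, 26 to 112 without 1 array, 161 with only the arrays compared and 230 and 335 with the replicate block over both dates and within each date. The fob1 deletion between dates had 275 calls, 40 to 447 without 1 array, 0 with only the arrays compared (799 at an unadjusted p under 0.05) and 418 with the replicate block over both dates. Its split of 104 higher and 171 lower became 105 and 101 with quantile normalization repeated and 141 and 88 with median centring. For the other moved counts the cause was not tested. One setting, leaving replicate 2 of the rad61 deletion out of the shared spread, was chosen after seeing the data and gave 2367 interaction calls. Among lists, interaction calls also moved by over 1.5 times with the fob1 arrays of the later date: heat shock 6 higher, respiratory chain 15 lower, hexose transporters 2 higher, RNA polymerases 2 lower, G1/S 5 lower, histones 1 lower, cohesin 5 higher, Gcn4 genes 14 higher and 4 lower, methionine and sulfur 8 higher and 4 lower, phosphate 14 higher, Yap1 genes 2 higher and DNA damage 12 lower. Leaving out dim probe sets gave 8 lower glucose-repressed genes, 5 lower methionine genes, 3 higher condensin genes, and 3 higher and 3 lower DNA damage genes, with fewer genes tested. The replicate block within each date gave 36 higher cytosolic ribosomal protein genes, 8 higher DNA damage genes, 4 lower iron genes and 4 lower G1/S genes. The trended prior gave 43 higher cytosolic ribosomal protein and 6 higher heat shock genes, the linear scale 46 of the first, repeated quantile normalization 9 higher DNA damage and 4 lower G1/S genes, and only the arrays compared 6 higher methionine genes. Further moves past 1.5 times under the block, the trended prior, the linear scale, quantile normalization or only the arrays compared were of at most 2 genes, apart from the sporulation list given above.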
